A study of Homo sapiens with 6 samples.

Results

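The S100 genes encode small calcium-binding proteins. 10 of them were followed here in SKOV3, an established human ovarian carcinoma cell line: S100A1, S100A2, S100A3, S100A4, S100A6, S100A10, S100A13, S100A14, S100A16 and S100P. They were chosen by name, with earlier results of these data known. All 10 were found among the 14884 genes of the array table, and each had a single probe set, so no choice between probe sets was needed. The 3D group (n = 3) was grown on low-attachment plates with FP001 at 0.015% (w/v), a medium supplement that the labels give only as this code, and the 2D group (n = 3) on ordinary attachment plates without it. Both groups were kept for 11 days in McCoy's 5A medium with 15% serum in multi-well plates per the labels' protocols, and each sample was hybridised to 1 array. Because plate type and additive differ between the groups at once, neither can be credited with a change. The labels do not say whether the arrays of a group came from separate cultures, so a p-value here speaks only for the scatter of these 6 samples, and that scatter may be technical in origin.

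S100 proteins usually form dimers, and each subunit carries a pair of EF-hand loops that open a binding surface when calcium is bound. Some act inside the cell on the cytoskeleton, on annexins at membranes or on transcription regulators, and some are released and bind receptors such as RAGE. Most of the genes sit side by side in a cluster on the long arm of chromosome 1, next to the genes of the epidermal differentiation complex, and several are used as markers of epithelial state or of invasion in carcinomas.

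Values are log2 RMA values, the authors' background-corrected and array-normalised scale, and a change is the 3D mean minus the 2D mean. Levels of different probe sets are not comparable with one another. Within the 3D group, replicate 1 correlated across genes at 0.988 with each other array, and replicates 2 and 3 correlated at 0.995, so 3D replicate 1 stood apart. Correlations were 0.991 to 0.993 among the 2D arrays and 0.975 to 0.982 between the groups. Of the carcinoma markers measured, the Müllerian lineage factor gene PAX8 read 10.34 ± 0.17 in 3D and 10.18 ± 0.06 in 2D (SD, n = 3 each), and EPCAM read 9.96 ± 0.12 in 3D and 8.20 ± 0.13 in 2D. KRT18 read 10.06 in 3D and 9.61 in 2D, MSLN 7.03 and 6.63, and KRT8 5.82 and 5.66. KRT7 read 5.13 in 3D and 6.07 in 2D, and WT1 5.20 and 5.25. ERBB2 and MUC16 were not analysed here.

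In 3D culture S100A14 rose, and S100A2 and S100A3 fell. The other 7 genes did not pass the threshold, an adjusted p under 0.05 in limma with Benjamini-Hochberg adjustment over all 14884 genes. Thus 3 of the 10 genes were called, where 10% of all genes were, and 1 was higher and 2 were lower, against 5.23% and 4.77% of all genes. With the other measured genes named S100 added, 4 of 21 were called. These counts are a description only, because the genes were chosen with earlier results known. The median change of the 10 genes was 0.02, beside -0.01 for all genes, and single changes ran from -1.01 to 1.25. With bulk RNA, a lower value can mean fewer cells using the gene or less of its RNA in each cell, and these cannot be told apart.

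**Figure D1:**
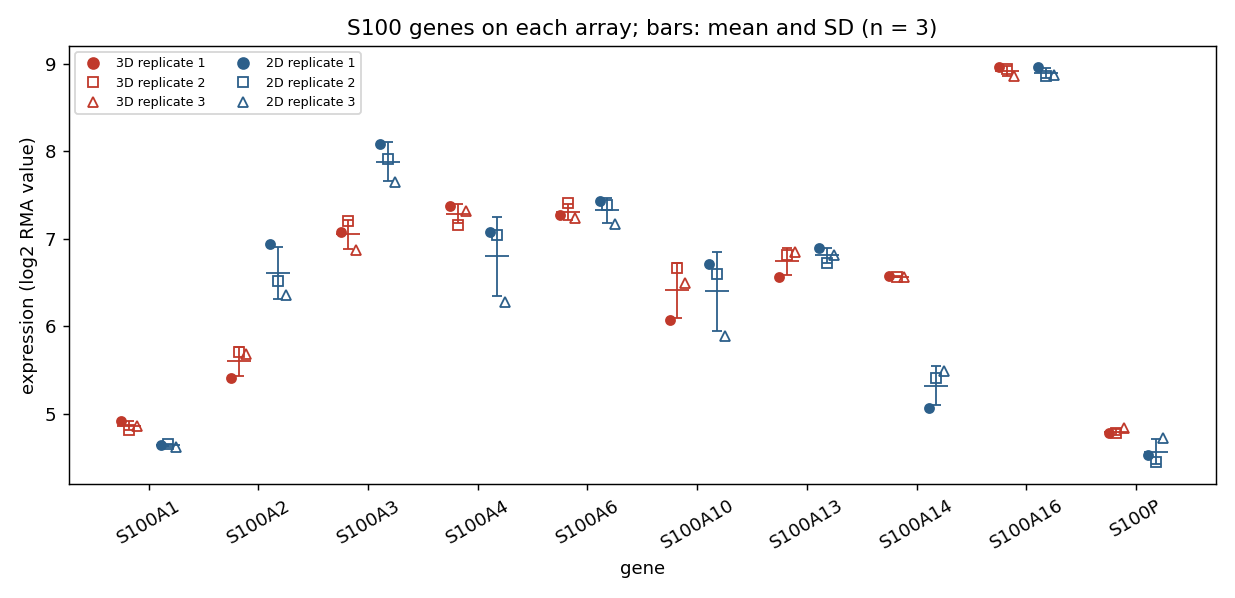
Expression of the 10 S100 genes on each array, in log2 RMA values (vertical axis), with 3D arrays in red on the left of each pair and 2D arrays in blue on the right; horizontal marks are group means and bars are SDs (n = 3). S100A14 is higher on every 3D array, at 6.56 to 6.58, than on any 2D array, at 5.07 to 5.49, and S100A2 and S100A3 are lower on every 3D array.

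S100A14, which encodes an S100 protein of epithelial cells with an altered calcium-binding loop, read 6.58, 6.56 and 6.56 on the 3D arrays, against 5.07, 5.41 and 5.49 on the 2D arrays. The 3D arrays lay almost on top of each other, the groups were far apart, and the spread was on the 2D side, where replicate 1 was lowest. The change was 1.25 ± 0.12 (SE, n = 3 per group, limma adjusted p = 0.000925), or 2.37-fold, and 177 of the 14884 genes had a larger rise. The promoter window of S100A14, the 1 called riser of the 10 genes, is shown first below. The window contained no match to any of the 4 motifs searched.

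S100A2, encoding a mostly nuclear S100 protein of epithelial cells that binds p53, read 5.41, 5.71 and 5.68 on the 3D arrays, against 6.94, 6.52 and 6.36 on the 2D arrays. All 3D values were under all 2D values, with 3D replicate 1 the lowest and 2D replicate 1 the highest of the 6. The change was -1.01 ± 0.17 (SE, n = 3 per group, limma adjusted p = 0.00872), which makes the 2D level 2.01-fold the 3D level, and 170 genes had a larger fall. With the replicate number fitted as a block, S100A2 was not called (limma adjusted p = 0.051). S100A3, encoding a zinc- and calcium-binding protein best known from the hair cuticle, read 7.08, 7.20 and 6.87 on the 3D arrays, against 8.08, 7.91 and 7.65 on the 2D arrays. The groups were again separate. Its change was -0.83 ± 0.14 (SE, n = 3 per group, limma adjusted p = 0.0105), the 2D level being 1.78-fold the 3D level.

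The promoter windows of the 3 called genes run from 250 bases before to 50 after the RefSeq start (GRCh38.p14, minus strand, 5′ to 3′), and capitals mark matches to AP-1 (TGANTCA) or to the GC box (GGGCGG) on either strand.
S100A14, chr1:153616276-153616575: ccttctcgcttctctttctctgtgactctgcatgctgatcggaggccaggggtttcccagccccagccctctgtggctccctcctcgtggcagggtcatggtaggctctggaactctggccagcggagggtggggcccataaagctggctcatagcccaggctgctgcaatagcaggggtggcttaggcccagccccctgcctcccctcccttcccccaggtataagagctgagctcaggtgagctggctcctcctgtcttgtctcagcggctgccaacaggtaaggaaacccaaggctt
S100A2, chr1:153565795-153566094: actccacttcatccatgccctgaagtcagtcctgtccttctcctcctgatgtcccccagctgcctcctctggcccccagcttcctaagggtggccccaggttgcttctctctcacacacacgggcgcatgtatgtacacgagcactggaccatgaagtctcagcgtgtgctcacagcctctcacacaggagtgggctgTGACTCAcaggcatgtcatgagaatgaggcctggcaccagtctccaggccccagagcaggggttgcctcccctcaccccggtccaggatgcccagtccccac
S100A3, chr1:153549209-153549508: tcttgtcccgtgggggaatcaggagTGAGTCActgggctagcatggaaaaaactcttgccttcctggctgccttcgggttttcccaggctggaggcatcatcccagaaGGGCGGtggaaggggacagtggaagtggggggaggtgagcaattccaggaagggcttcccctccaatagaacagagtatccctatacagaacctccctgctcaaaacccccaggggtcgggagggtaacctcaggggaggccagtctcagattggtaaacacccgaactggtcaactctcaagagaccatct

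The S100A2 window holds 1 AP-1 match, starting 52 bases before the start site, and the S100A3 window holds 1 AP-1 match 225 bases before it and 1 GC box 142 bases before it. The AP-1 letters occur in 7.71% of all 35116 windows in the table and in 2 of the 14 windows of the 10 S100 genes, 1 of S100A2 and 1 of S100A3. Whether the motif has a part in their changes was not tested. A second RefSeq start of S100A2 has a window with no match to any of these motifs. The GC box occurs in 45.0% of all windows and in 5 of the 14. The other motifs searched on both strands were the TATA box (TATAAA), in 11.5% of all windows and 3 of the 14, and the TEAD motif (GGAATG), in 14.03% and 2 of the 14. None of the motifs searched overlaps another in the printed windows. A match describes letters and not a bound site.

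**Figure D2:**
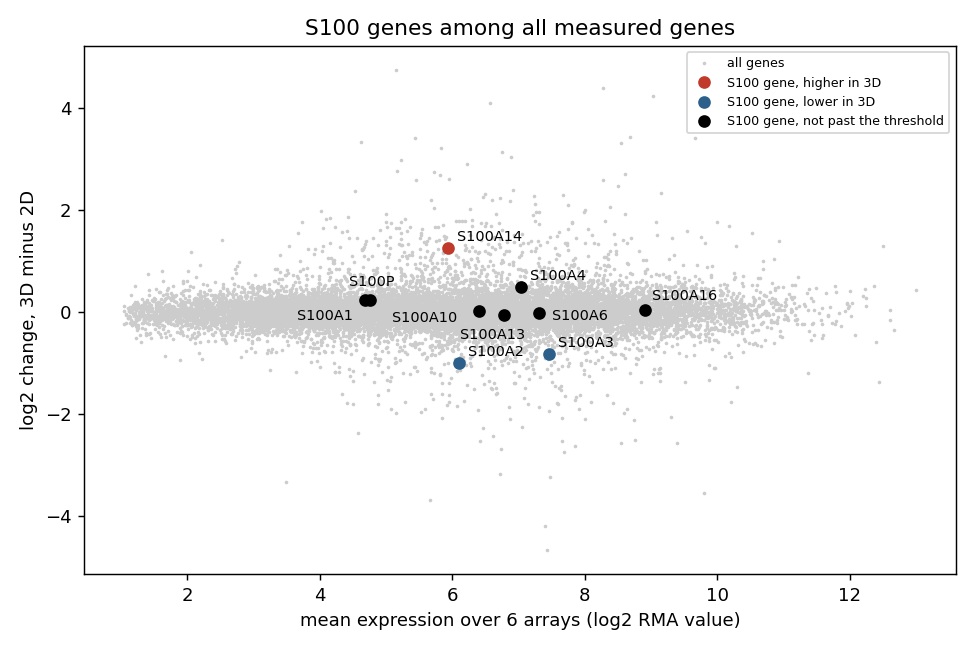
Change between 3D and 2D (vertical axis, log2) against the mean level over the 6 arrays (horizontal axis, log2 RMA value) for all 14884 genes in grey, with the 10 S100 genes labelled. S100A14 at 1.25 lies above the bulk of genes of like level, S100A2 at -1.01 and S100A3 at -0.83 lie below it, and the 7 S100 genes not past the threshold lie between -0.07 and 0.48.

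Of the S100 genes tied to the cytoskeleton and to cell movement, S100A4 had the largest change that did not pass. S100A4 encodes metastasin, which binds non-muscle myosin and is associated with invasion. It read 7.38, 7.16 and 7.32 on the 3D arrays, against 7.08, 7.04 and 6.28 on the 2D arrays. The groups did not overlap, but 2D replicate 3 lay far under the other 2D arrays. The change was 0.48 (95% interval -0.01 to 0.98, limma adjusted p = 0.22), and without 2D replicate 3 it was 0.22 (adjusted p = 0.363). S100A6, encoding calcyclin, read 7.27, 7.40 and 7.24 on the 3D arrays and 7.43, 7.39 and 7.17 on the 2D arrays. These ranges overlapped, with a change of -0.02 (95% interval -0.28 to 0.23). S100P, whose product binds ezrin and RAGE, read 4.78, 4.78 and 4.84 on the 3D arrays, against 4.53, 4.45 and 4.73 on the 2D arrays. All 3D values were above all 2D values by a small margin, and the change of 0.23 (95% interval -0.01 to 0.47) had an adjusted p of 0.235 in limma.

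S100A10 encodes p11, an S100 protein that no longer needs calcium and holds annexin A2 at the membrane. It read 6.07, 6.67 and 6.49 on the 3D arrays, against 6.71, 6.60 and 5.88 on the 2D arrays. It had the widest scatter of the 10 genes among the 3D arrays, where replicate 1 was lowest, and 2D replicate 3 was lower still. The change was 0.01 (95% interval -0.56 to 0.58). The interval gives the changes compatible with these arrays in either direction and is not a limit of detection. Without 2D replicate 3 the value was -0.25, and without 3D replicate 1 it was 0.18.

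S100A13, which takes part in the non-classical release of the growth factor FGF1, read 6.57, 6.81 and 6.85 on the 3D arrays, against 6.90, 6.72 and 6.81 on the 2D arrays. The groups overlapped, and the change was -0.07 (95% interval -0.33 to 0.19). S100A16, a widely expressed member, read 8.96, 8.94 and 8.86 on the 3D arrays and 8.96, 8.85 and 8.87 on the 2D arrays. The groups overlapped almost fully, and the interval of its change, -0.18 to 0.23, was among the narrowest of the family. S100A1, best known from heart and skeletal muscle, where it binds the ryanodine receptor, read 4.92, 4.81 and 4.86 on the 3D arrays, against 4.64, 4.66 and 4.62 on the 2D arrays. The 3D values were all higher. The change of 0.22 (95% interval 0.02 to 0.42) had an unadjusted p of 0.0334 and an adjusted p of 0.166 in limma. S100A1 and S100A13 overlap on the RefSeq map, and whether their probe sets share signal was not tested.

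Groups that did not overlap were seen for 6 of the 10 genes, 4 higher and 2 lower in 3D, where 29.2% of all genes had such groups. Among the 3D arrays the SD of a gene ranged from 0.0079 for S100A14 to 0.31 for S100A10, and among the 2D arrays from 0.017 for S100A1 to 0.45 for S100A4. Of the 2D arrays, replicate 3 held the lowest value for 6 of the 10 genes and replicate 1 the highest for 7, while over all genes these arrays were lowest in 34.4% and highest in 34.2%. The count of called genes stayed at 3 whichever single array was left out, and S100A14, S100A2 and S100A3 each passed every time. Without 3D replicate 1 their changes were 1.24, -0.91 and -0.84.

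**Figure D3:**
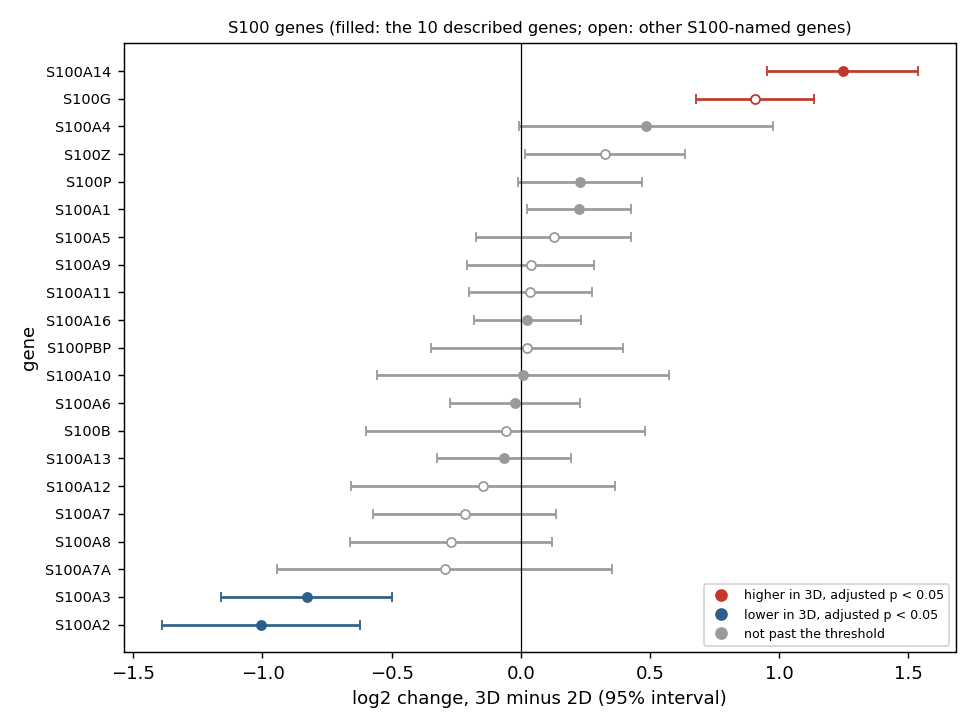
Change between 3D and 2D (horizontal axis, log2) with its 95% interval for the 10 described S100 genes (filled) and the other measured genes named S100 (open), sorted by change. S100A14 and S100G are past the threshold on the higher side and S100A2 and S100A3 on the lower side.

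Another 11 genes named S100 were measured, and 1 of them passed, where 10% of all genes did. S100G, encoding calbindin-D9k, the vitamin D-regulated calcium carrier of the intestine, was 2.65 ± 0.12 in 3D and 1.75 ± 0.05 in 2D (SD, n = 3 each), a change of 0.91 ± 0.10 (SE, limma adjusted p = 0.0013). Both means lay under 2.94, the lower quartile of mean levels over all probe sets, so its change rests on dim values. The remaining 10 gave changes of -0.29 to 0.33, with adjusted p-values of 0.189 to 0.955. Among them were S100A8 and S100A9, the calprotectin subunits of myeloid cells and stressed epithelium, with -0.27 and 0.04, and S100A11, with 0.04. S100PBP, with 0.02, shares the name as a binding partner of S100P and is not an S100 protein.

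Seen in chromosome order, the 3 called genes are close together. All of the 10 genes but S100P lie in the same stretch of chromosome 1, so this closeness follows largely from the choice of genes. S100G, called among the other S100 genes, lies on chromosome X. From S100A10 to S100A1, with 1 measured gene beyond at either end, 63 genes were measured, 16 of them S100A genes. The called genes were S100A3 and S100A2, which are direct neighbours in the RefSeq order, and S100A14. S100A14 lies between S100A16, with 0.03, and S100A13, with -0.07, and S100A16 in turn follows S100A2. On the other side of S100A3 lies S100A4, with 0.48. Where 10% of all genes passed the threshold in limma, none of the 47 other genes of the stretch did. Of these, 1 had an unadjusted p under 0.05, where 23.5% of all genes did, and it was LCE1C, a late cornified envelope gene (0.39, adjusted p = 0.0542, named after its value was seen). 11 of the 47 lay under the lower quartile of levels, against 1 of the 16 S100A genes. That quartile is taken over all probe sets, and 13457 of the 14884 genes lay at or above it. Dim genes were thus more frequent among the 47 than over all genes.

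**Figure D4:**
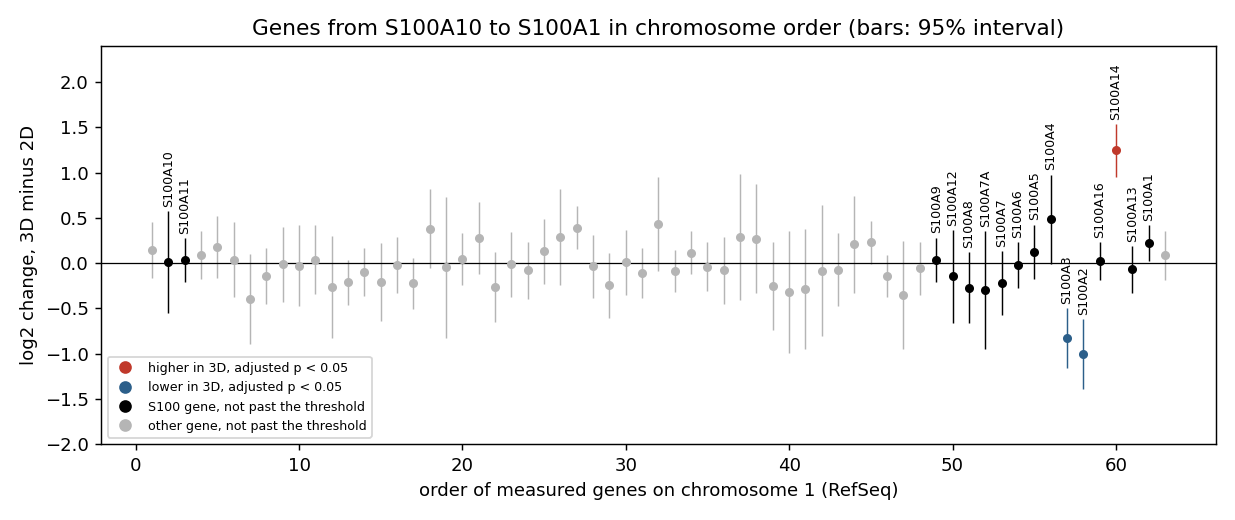
Change between 3D and 2D (vertical axis, log2, with 95% intervals) for the 63 measured genes from S100A10 to S100A1 and 1 gene beyond each end, in their order on chromosome 1 (horizontal axis, rank and not distance). S100A3 and S100A2 fall side by side, S100A14 rises between S100A16 and S100A13, which lie at 0.03 and -0.07, and no gene outside the S100 group is past the threshold.

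The fused-type S100 genes, which encode filaggrin and related structural proteins of cornified epithelium, gave 0 of 7 past the threshold in limma, and 0 at an unadjusted p under 0.05. The epidermal differentiation complex list gave 0 of 35 in limma, and 1 at an unadjusted p under 0.05. Over all genes these shares were 10% and 23.5%. All measured genes of both lists are among the 47 other genes of the chromosome 1 stretch. The counts thus repeat that result, and the 1 gene is again LCE1C. Under the lower quartile of levels lay 10 of the 35 and 1 of the 7. The complex list's mean level per array was 3.68 to 3.90 in 3D and 3.67 to 3.86 in 2D. Array medians over all probe sets were 4.30 to 4.37, so these counts rest partly on dim values. Median changes of the fused-type and complex lists were -0.01 and -0.05. LCE1C passed when dim probe sets were filtered out or 3D replicate 1 was left out.

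Annexins bind membranes in the presence of calcium, and several are held by S100 dimers. Of 13 annexin genes 3 rose, 2 fell and 8 did not pass, with a median change of 0.03. That is 38.5% called, where 10% of all genes were. ANXA10 was 6.78 ± 0.08 in 3D and 4.59 ± 0.32 in 2D (SD, n = 3 each), a rise of 2.19 ± 0.16 (SE, limma adjusted p = 0.00026). ANXA9, which lies on chromosome 1 as most S100 genes do, was 7.52 ± 0.09 in 3D and 6.14 ± 0.26 in 2D, and rose 2.60-fold. ANXA8 and its near-identical copy ANXA8L1 gave -0.63 and -0.58, and signal of either may belong to the other, which makes both values uncertain. ANXA1, known as a partner of S100A11, rose by 0.39 (limma adjusted p = 0.0367), a call lost without any array except 3D replicate 1. ANXA8 and ANXA8L1 lost their calls without several single arrays, so that 2 to 5 annexins were called when 1 array was left out. ANXA10 and ANXA9 passed each time. ANXA2, the partner of S100A10, gave 0.03 (95% interval -0.36 to 0.42).

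Of 20 measured binding partners and receptors of S100 proteins, a list that shares 5 genes with the annexins, 1 rose, 2 fell and 17 did not pass, with a median change of 0.02. That is 15% called, near the 10% of all genes. AHNAK, the giant scaffold that binds the S100A10 and annexin A2 complex, was 8.04 ± 0.18 in 3D and 8.87 ± 0.23 in 2D (SD, n = 3 each), a change of -0.83 ± 0.15 (SE, limma adjusted p = 0.0125). The kinase gene STK38, whose product is bound by S100B, gave -0.57, and ANXA1 was the riser. The RAGE gene AGER gave 0.13, the calcyclin-binding gene CACYBP -0.07 and the ezrin gene EZR -0.03, each short of the threshold. AHNAK lost its call without 2D replicate 3 (adjusted p = 0.0512). STK38 lost its call when 3D replicate 2, 2D replicate 1 or 2D replicate 3 was left out (adjusted p at most 0.0613), and 0 to 3 genes of this list were called when 1 array was left out. MYH9 was not analysed here.

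**Figure D5:**
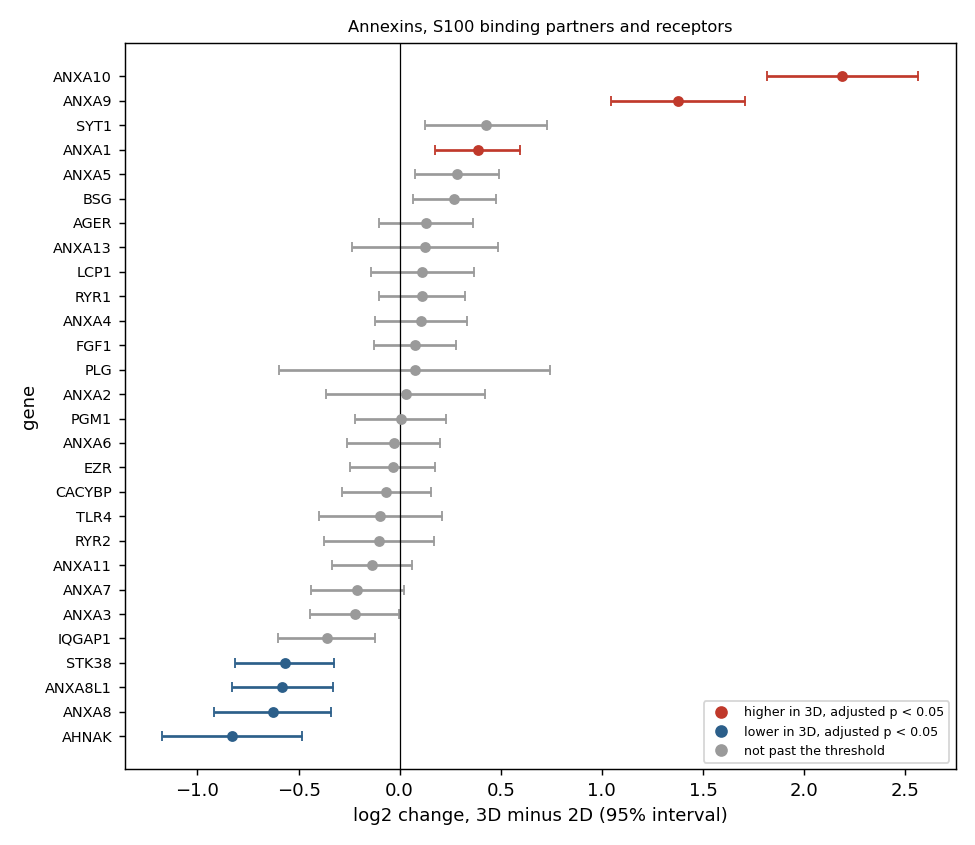
Change between 3D and 2D (horizontal axis, log2) with 95% intervals for the measured annexins and S100 binding partners and receptors, sorted by change. ANXA10 and ANXA9 lie furthest to the right at 2.19 and 1.38, and AHNAK lies furthest to the left at -0.83, while ANXA2, AGER, CACYBP and EZR lie close to 0.

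Of 29 other EF-hand genes 5 rose, 2 fell and 22 did not pass, with a median change of 0.07. That is 24.1% called, where 10% of all genes were. The neuronal calcium sensor genes NCALD and VSNL1 rose by 1.23 and 1.18, the matricellular gene SMOC2 by 0.72 and the plastin gene PLS1 by 0.68. NCALD has 2 probe sets, and their mean gave 0.93 (limma adjusted p = 0.0159). Leaving out 1 array gave 2 to 9 calls in this list, and VSNL1 and PLS1 were among those lost (adjusted p up to 0.0604 and 0.0925). Of 10 measured calcium channels and store sensors 1 rose and 1 fell, which is 20% called beside 10% of all genes. STIM2, a sensor of the calcium store of the endoplasmic reticulum, rose by 1.06, and the mechanosensitive channel gene PIEZO1 gave -0.45, a call lost without any array except 3D replicate 1.

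Marker lists of other cell types were read beside these values. Over all genes, 5.23% were called higher and 4.77% lower. Of 5 measured leukocyte markers 2 rose, LYZ (1.83) and CD68 (0.68), while CD14 (-0.41), CSF1R (-0.38) and NKG7 (-0.24) did not pass and the median change was -0.24. LYZ has 2 probe sets, and its change was 1.06 at the lowest of the alternatives other than leaving out arrays. The leukocyte list's mean level per array was 5.58 to 5.74 in 3D and 5.26 to 5.40 in 2D. Of 5 fibroblast and endothelial markers 1 rose, PECAM1 (1.27), and the other 4 lay between -0.11 and 0.12, with a median change of -0.01 over the list. Its means were 4.20 to 4.46 in 3D and 4.03 to 4.13 in 2D. Of 6 squamous markers 2 rose, KRT5 (3.22) and DSC3 (0.39), with a median change of 0.38 and means of 5.20 to 5.73 in 3D and 4.67 to 4.89 in 2D. Both calls were lost when any single array other than 3D replicate 1 was left out. Over all alternatives their adjusted p-values in limma reached 0.0708 and 0.146. Of 7 carcinoma markers EPCAM rose and KRT7 fell by 0.93, with a median change of 0.17, and without 3D replicate 1 the list had 3 higher and 1 lower. The part of these genes in the S100 results was not tested.

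The profiles closest to those of the 3 called genes were listed as a description over the 6 arrays. After each gene's own mean was subtracted, the nearest to S100A14 were CPE, SLPI and BMP6, at root mean square differences of 0.056, 0.076 and 0.095, where the median gene was at 0.66. CPE encodes a peptide-processing carboxypeptidase, SLPI a secreted protease inhibitor of epithelia and BMP6 a bone morphogenetic protein. The nearest to S100A2 were ADAMTSL3, MIR4668 and BEND6, at 0.091, 0.10 and 0.10. The nearest to S100A3 were SCARNA9L, JADE1 and PURPL, at 0.0093, 0.052 and 0.088.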

How the data were processed

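Gene expression was measured on 6 arrays, 3 of 3D and 3 of 2D culture. The authors deposited 1 table of log2 values with 53617 probe sets, made with RMA per the submitters' processing notes. For version and filters, nothing is stated in these sources. That the scale is log2 follows from its range (0.30 to 13.87), and no detection calls are given. Symbols came from the platform annotation, with 16098 probe sets carrying 1 symbol, 0 several and 37519 none, and all 16098 were matched to RefSeq genes (GRCh38.p14). The annotation is that of a Human Gene ST design, but a kit for 3′ IVT arrays is given in the labels' protocol, and this conflict, which bears on what each probe set measures, is unresolved. Each gene was represented by its probe set with the highest mean, which gave 14884 genes. The number of arrays limits the precision.

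Groups were compared with limma 3.58.1 in R 4.3.3 (statmod 1.5.0), group alone, two-sided, Benjamini-Hochberg over all genes, threshold 0.05; the fit was tested on simulated data. Lists are described by counts and medians. Named were all 10 S100 genes, some of their partners, up to 4 called genes per list and the 3 nearest profiles of the 3 genes with the largest change. S100 genes and lists were chosen with earlier results of these data known. Promoter windows are from RefSeq (GRCh38.p14, 10 of 10 genes matched) and motifs were searched in Python 3.11.15. Alternatives were other normalizations, a filter on dim probe sets, other probe set choices, a trended variance, a replicate block and leaving out each array.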

Additional observations from a re-analysis of the deposited data

How the results depend on the processing

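S100A14, S100A2 and S100A3 kept their direction under all 14 alternatives, at 1.12 to 1.33, -1.13 to -0.84 and -0.95 to -0.73, and S100A14 and S100A3 passed in each, S100A3 at an adjusted p of up to 0.0491 (every probe set tested singly). For genes with a single probe set, direction could differ only under another normalization or with an array left out. The dim filter, the probe set choices, the trended variance and the replicate block leave the change itself unaltered and can move only its p-value. The titles number the replicates 1 to 3 in both groups, and the labels do not say whether the numbers pair the samples. Deviations of same-numbered arrays correlated at -0.28, -0.06 and -0.18, and no array correlated best with its own number. With 3 arrays per group, these correlations cannot settle whether the samples were paired. With the replicate number as a block, 760 genes were called in place of 1488, and 2 of the 10 S100 genes, since S100A2 had an adjusted p of 0.051 (-1.01).

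Leaving out 1 array gave 775 to 1899 called genes and 3 S100 genes each time. The changes of 3 genes not past the threshold crossed 0. S100A6 (-0.02) ranged from -0.10 to 0.0286, S100A10 (0.01) from -0.25 to 0.18 and S100A13 (-0.07) from -0.12 to 0.0220 when single arrays were left out, and S100A10 gave -0.0076 after a repeated quantile normalization. The cause was not tested. Over all 10 genes, 131 of the values under alternatives kept direction and side of the threshold, 1 lost its call and 8 crossed 0. Many of the 131 could not have crossed 0. Only another normalization or a left-out array can alter the change of a gene with a single probe set. The partner list gave 6 calls with a trended and robust variance and 0 with every probe set tested singly.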

Other observations

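On the 3D arrays, replicates 2 and 3 held the same deposited value for S100A14, 6.56189. Identical values in these arrays occurred for 35 of 14884 genes, and in other pairs of arrays for 29 to 47, with S100A14 the 1 case among the 10 S100 genes.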
